A study of Mus musculus with 10 samples.

Results

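The transcripts described here encode the chains of the interleukin-5 receptor and its relatives, namely Il5ra, Csf2rb and Csf2rb2. These 3 members were taken by symbol from a table of 14450 genes, and all 3 were listed. They were selected on their levels in these Chat+ and Chat- libraries, which were known from earlier results, so those levels are given as a description, without a test.

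Il5ra encodes the alpha chain, which binds interleukin-5 and gives the receptor its specificity. Csf2rb encodes the common beta chain, which the receptors for interleukin-5, interleukin-3 and GM-CSF share and which signals through the kinase Jak2 and the transcription factor Stat5. Mice carry an additional beta chain gene, Csf2rb2, whose product serves the interleukin-3 receptor alone. In mouse B cells interleukin-5 is best known for sustaining B-1 cells and promoting antibody secretion, and outside the B lineage the same chains are carried by eosinophils, basophils and other myeloid cells.

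The series compared mature bone marrow B cells of Chat-GFP mice at steady state, separated by flow cytometry into Chat+ and Chat- cells, with 5 libraries of each. Both groups came from this reporter strain, in which fluorescence marks use of the locus of choline acetyltransferase, the enzyme that makes acetylcholine, and both were without treatment. The labels give no age and do not name the animal behind each library, so the spread between libraries may be technical.

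Levels are given in CPM, counts per 1000000 counts assigned to the listed genes of a library. Estimated depth was 21530000 to 30060000 reads per library. All 8 B cell markers were listed, with a summed level of 17175 to 20096 CPM in Chat+ and 17877 to 18195 CPM in Chat-. Chat itself, the gene behind the sort, was at 31.1 to 111 CPM in Chat+ and 1.17 to 19.7 CPM in Chat-. The library Chat- replicate 4 stood apart, with 11.9% of its CPM from mitochondrial genes against 2.27% to 3.85% in the other 9, and 1213 genes listed at 0 against 62 to 682. In sorted bulk cells, a lower share of cells with a transcript and less of it per cell cannot be told apart.

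The beta chain genes lie side by side on chromosome 15 of GRCm38, Csf2rb2 (ENSMUSG00000071714) at 78282507 to 78305721 on the minus strand and Csf2rb (ENSMUSG00000071713) at 78325752 to 78353847 on the plus strand. They are thus arranged head to head, with 20030 bases between their annotated starts. Their coding sequences were 95.2% identical over 2628 aligned bases, and the longest run without a difference was 242 bases. Of the 31-base words in Csf2rb transcripts 18.8% also occurred in Csf2rb2 transcripts, and 28.6% of those of Csf2rb2 occurred in Csf2rb. The pair is printed here because the reading of both genes rests on how well reads tell them apart. The first pair of lines gives the stretch of 100 coding bases with the most differences, 17, which are in capitals. It covers coding bases 314 to 413 of Csf2rb (transcript Csf2rb-206) and 317 to 416 of Csf2rb2 (transcript Csf2rb2-201), counted from the first base of the start codon in GENCODE M21.
Csf2rb: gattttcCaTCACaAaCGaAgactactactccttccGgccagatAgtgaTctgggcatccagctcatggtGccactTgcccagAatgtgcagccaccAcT
Csf2rb2: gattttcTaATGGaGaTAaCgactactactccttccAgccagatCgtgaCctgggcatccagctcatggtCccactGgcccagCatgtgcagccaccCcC
A read from such a stretch can be assigned to its gene. The next pair of lines gives the first stretch of the same length with 0 differences, coding bases 662 to 761 of Csf2rb and 665 to 764 of Csf2rb2.
Csf2rb: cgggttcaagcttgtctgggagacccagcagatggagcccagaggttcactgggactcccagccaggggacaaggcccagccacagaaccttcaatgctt
Csf2rb2: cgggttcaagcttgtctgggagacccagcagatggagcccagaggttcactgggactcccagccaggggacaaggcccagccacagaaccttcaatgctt
A read that lies wholly inside this stretch matches both genes, and its share per gene was estimated by the authors' quantification. The median over all ungapped stretches of this length was 3 differences, so most such stretches hold some. Levels of Csf2rb2, the lower of the pair, are accordingly the more uncertain.

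Il5ra (ENSMUSG00000005364, chromosome 6 at 106710357 to 106749037, minus strand) was at 49.0, 49.1, 65.2, 44.7 and 47.4 CPM in Chat+ replicates 1 to 5. In Chat- replicates 1 to 5 it was at 40.1, 36.6, 38.9, 36.0 and 38.1 CPM. All Chat+ libraries lay above all Chat- libraries, and the gap between the groups, from 40.1 to 44.7 CPM, was narrow. The Chat- libraries were close together while Chat+ replicate 3 stood above the rest of its group. The mean was 51.1 ± 8.11 CPM in the Chat+ group and 37.9 ± 1.68 CPM in the Chat- group (SD, n = 5 each). The Chat+ to Chat- ratio was 1.33-fold, taken on log2(CPM + offset) values (log2 difference 0.42 ± 0.12, SE). These levels stand for an estimated 775 to 1794 reads per library, a counting error of 2.36% to 3.59% that is near the SD within Chat- (4.42% of the mean) and below that within Chat+ (15.9%). Without Chat+ replicate 3 the log2 difference was 0.32, and without Chat- replicate 4 it was 0.40. That replicate was also the Chat+ library with the most Chat transcript, while in the other Chat+ libraries the order of the genes differed.

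Csf2rb showed the larger difference. It was at 80.9, 59.5, 52.4, 53.6 and 120 CPM in Chat+ replicates 1 to 5, and at 37.6, 29.4, 23.7, 27.7 and 47.1 CPM in Chat- replicates 1 to 5. Again the groups did not overlap, with Chat+ replicate 5 far above the others. The spread was wide in both groups, with a mean of 73.3 ± 28.5 CPM in the Chat+ group and 33.1 ± 9.33 CPM in the Chat- group (SD, n = 5 each). The fold difference was 2.16 (log2 difference 1.11 ± 0.24, SE). It was 0.91 on the log2 scale without Chat+ replicate 5 and 1.06 without Chat- replicate 4. With the CPM of both beta chain genes added before the fit, which does not depend on how reads were split between them, it was 1.01 ± 0.24 (SE).

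Csf2rb2 did not follow its neighbour. It was at 2.98, 4.06, 1.47, 2.18 and 8.16 CPM in Chat+ replicates 1 to 5, and at 3.22, 4.17, 2.68, 5.35 and 4.28 CPM in Chat- replicates 1 to 5. The groups overlapped throughout, and the highest and the lowest library were both Chat+. The mean was 3.77 ± 2.63 CPM in the Chat+ group and 3.94 ± 1.03 CPM in the Chat- group (SD, n = 5 each; log2 difference -0.26 ± 0.43, SE). Without Chat+ replicate 3, its lowest library, the log2 difference was 0.0033, so the sign rests on that library. These levels stand for an estimated 40.5 to 210 reads, with a counting error of 6.89% to 15.7%.

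For 2 of the 3 members the groups did not overlap, with Chat+ the higher. Over the whole table this held for 162 of 14450 genes (1.12%), and the reverse held for 44 (0.304%). Since the members were chosen with these differences known, nothing is read from that comparison. With limma and Benjamini-Hochberg adjustment over the whole table, 1 of 14450 genes (0.00692%) passed the threshold of 0.05, a gene lower in Chat+ and no member. The count of genes higher in Chat+ was thus 0, against 505 (3.49%) at an unadjusted p under 0.05. Chat, the gene behind the sort, was among those that did not pass, although its groups did not overlap (log2 difference 3.64 ± 0.59, SE). A gene that did not pass may thus still differ.

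**Figure D1:**
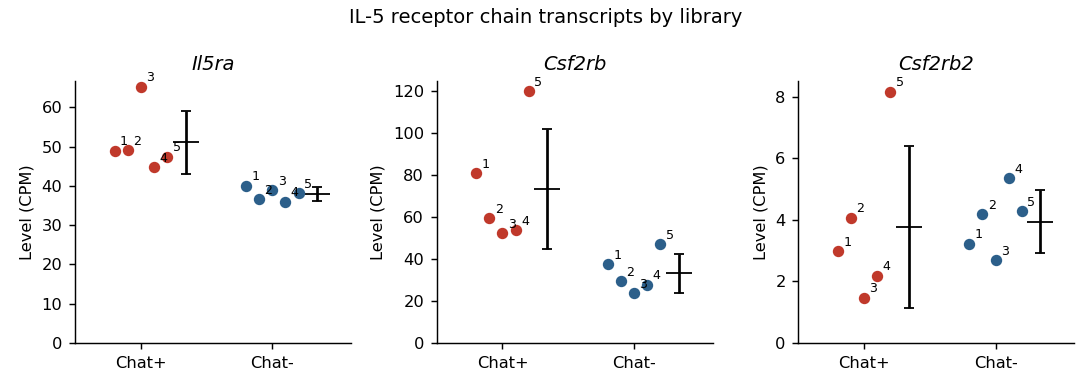
Level of Il5ra, Csf2rb and Csf2rb2 in CPM (vertical axes, each from 0) in 5 Chat+ and 5 Chat- libraries, numbered by replicate; bars show mean and SD. The groups are apart for Il5ra (44.7 to 65.2 against 36.0 to 40.1 CPM) and Csf2rb (52.4 to 120 against 23.7 to 47.1 CPM) and overlap for Csf2rb2.

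Csf2rb2 took a smaller share of the beta chain pair in Chat+ cells. It made up 3.55%, 6.39%, 2.73%, 3.90% and 6.37% of the summed CPM of both genes in Chat+ replicates 1 to 5. In Chat- replicates 1 to 5 it made up 7.88%, 12.4%, 10.2%, 16.2% and 8.32%. The shares did not overlap, with means of 4.59% ± 1.69 and 11.0% ± 3.41 (SD, n = 5 each). This share restates the levels already given, of which those of Csf2rb were apart between the groups and those of Csf2rb2 overlapped. Csf2rb2 also entered it: the highest share, in Chat- replicate 4, was where Csf2rb2 was highest in Chat-. The lowest share, in Chat+ replicate 3, was where Csf2rb2 was lowest. Csf2rb was thus the main beta chain transcript in all 10 libraries.

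Levels of different genes were compared per kilobase of the longest annotated transcript. Il5ra was at 14.3 ± 2.27 CPM per kilobase in Chat+ and 10.6 ± 0.469 in Chat- (SD, n = 5). Csf2rb was at 15.0 ± 5.82 in Chat+ and 6.76 ± 1.90 in Chat-, so it overlapped with Il5ra in Chat+ and lay below it in Chat-, where its highest library reached 9.61 and the lowest Il5ra library 10.1. By group mean Csf2rb2 came last of the receptor chains in both groups, at 0.795 ± 0.556 and 0.831 ± 0.218. In Chat+ replicate 5, however, it was at 1.72 and Il3ra at 1.61.

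By group mean the alpha chains of the sister receptors lay between Il5ra and Csf2rb2. Csf2ra, which binds GM-CSF, was at 7.23 ± 3.75 CPM per kilobase in Chat+ and 7.79 ± 1.69 in Chat-, overlapping with Csf2rb in Chat- cells. Il3ra, which binds interleukin-3, was at 3.62 ± 1.40 in Chat+ and 3.29 ± 0.893 in Chat-. The order depends on the length used. Annotated Il5ra transcripts run from 1704 to 3575 bases, and per kilobase of coding sequence Il5ra came first in both groups, with 41.0 ± 6.51 against 27.3 ± 10.6 for Csf2rb in Chat+ and 30.5 ± 1.35 against 12.3 ± 3.47 in Chat-. Which Il5ra transcripts these cells use was not tested.

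The balance of the common beta chain to the interleukin-5 alpha chain overlapped between the groups. Per kilobase of the longest transcript, the ratio of Csf2rb to Il5ra was 0.586 to 1.85 in Chat+ libraries and 0.444 to 0.901 in Chat- libraries. The lowest Chat+ value was in replicate 3, where Il5ra was highest, and the highest in replicate 5, where Csf2rb was highest.

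**Figure D2:**
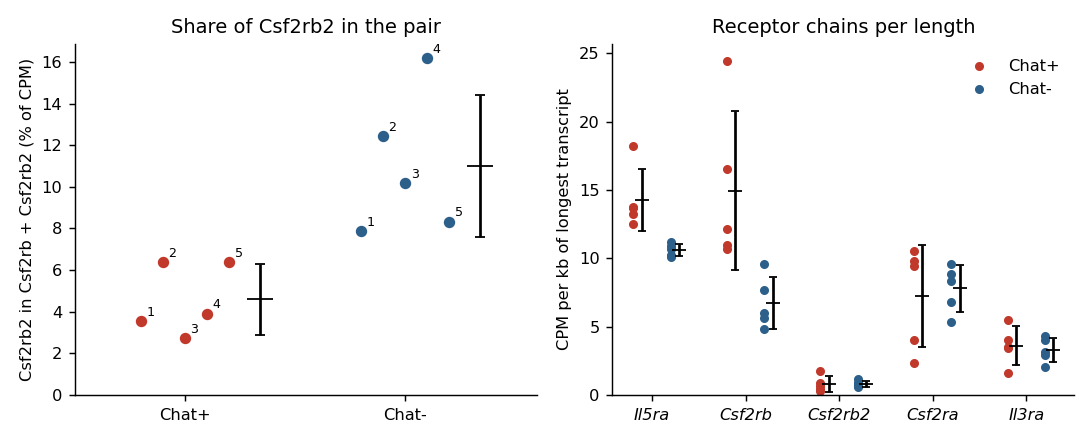
Left, Csf2rb2 as a percent of the summed CPM of Csf2rb and Csf2rb2 per library, numbered by replicate; right, CPM per kilobase of the longest transcript for 5 receptor chain genes, 1 point per library. Bars show mean and SD. The Csf2rb2 share is 2.73% to 6.39% in Chat+ and 7.88% to 16.2% in Chat-. Csf2rb2 has the lowest mean of the 5 chains in both groups.

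The alpha chains of the sister receptors did not pass the test between the groups. Csf2ra was at 23.9, 21.5, 9.14, 22.3 and 5.40 CPM in Chat+ replicates 1 to 5 and at 20.2, 18.9, 21.8, 15.6 and 12.2 CPM in Chat- replicates 1 to 5. Chat+ replicates 3 and 5 were below all Chat- libraries and the others were among or above them (limma, log2 difference -0.29 ± 0.39, SE, adjusted p = 0.999). Il3ra was at 3.72 to 12.7 CPM in Chat+ and 4.78 to 9.94 CPM in Chat- (limma, log2 difference 0.08 ± 0.33, SE, adjusted p = 0.999). Without Chat+ replicate 1 the Il3ra difference changed sign (-0.10), as it did without Chat- replicate 4 (-0.08), and that of Csf2ra changed sign without Chat+ replicate 5 (0.05). The ligand genes Il5, Il3 and Csf2 were not among the listed genes.

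Genes that carry the signal inside the cell showed no detectable difference. Of 20 proximal signalling genes, all listed, 0 passed the test in either direction, also at an unadjusted p under 0.05, and 12 had a difference above 0, where 57% of all genes did, with a median log2 difference of 0.04 that matches the 0.04 of all genes. Jak2, the kinase bound to the beta chain, was at 149 ± 20.6 against 127 ± 13.1 CPM (SD, n = 5; limma, log2 difference 0.22 ± 0.11, SE, adjusted p = 0.999). Stat5a and Stat5b, the main transcription factors of the pathway, had log2 differences of 0.0038 and -0.02. The adaptor gene Gab2 had the largest value of the list (0.85 ± 0.57, SE) at only 0.42 to 4.90 CPM. Without Chat- replicate 4, its lowest library, the Gab2 difference was 0.49. Sdcbp, whose protein syntenin binds the human interleukin-5 alpha chain, had a log2 difference of -0.12, which was -0.026 without Chat- replicate 4, its highest library, and -0.07 without Chat+ replicate 1, its lowest.

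Genes of the response to Stat5 or interleukin-5 mostly had higher values in Chat+, without passing. Of 18, all listed, 13 had a difference above 0, compared with 57% of all genes, the median log2 difference was 0.21, and 0 passed over all genes. At an unadjusted p under 0.05 there were 5, all higher in Chat+, while 3.49% of all genes were higher at that level. They were Myc, Cish, Jchain, Bcl2l1 and Pim1, the last named after its value was seen. The gene lists were chosen with earlier results of these data known, so nothing is read from these counts or those of the other lists.

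Cish, a feedback inhibitor switched on by Stat5, was at 6.79, 3.16, 1.78, 3.30 and 12.5 CPM in Chat+ replicates 1 to 5 and at 2.07, 0.645, 0.502, 0.511 and 4.31 CPM in Chat- replicates 1 to 5. Its groups overlapped, and in both it was highest in replicate 5 and lowest in replicate 3 (limma, log2 difference 1.87 ± 0.67, SE, adjusted p = 0.92). Myc, a growth regulator, was at 62.0 ± 19.4 against 40.8 ± 8.90 CPM (SD, n = 5) in groups that overlapped (limma, log2 difference 0.58 ± 0.20, SE, adjusted p = 0.87). Without Chat+ replicate 5, its highest library at 95.4 CPM, the Myc difference was 0.42. Bcl2l1, which encodes the survival protein Bcl-xL, was at 8.93 to 11.0 CPM in Chat+ and 5.06 to 8.72 CPM in Chat-, a separation of the groups that did not pass the test (limma, log2 difference 0.47 ± 0.21, SE, adjusted p = 0.999). With library quality weights the Bcl2l1 difference was 0.29. Jchain, the antibody joining chain that interleukin-5 is known to induce, ranged from 15.1 to 213 CPM in Chat+ and from 10.1 to 35.8 CPM in Chat- (limma, log2 difference 1.61 ± 0.62, SE, adjusted p = 0.999). Prdm1, a regulator of antibody secretion linked to the response, had a log2 difference of 0.10.

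Among transcription factors linked to Il5ra or Csf2rb, 9 of 10 were listed and 0 passed. Among factors of the B lineage the log2 differences were -0.16 for Pou2af1, -0.17 for Spi1 and -0.19 for Ebf1, and their size rested in part on single libraries. Pou2af1 was at 1002 CPM in Chat- replicate 4 and at 594 to 727 CPM in the other Chat- libraries, and without that library its difference was -0.043. The Ebf1 difference was -0.10 without Chat- replicate 4, -0.11 without Chat+ replicate 5 and -0.30 without Chat- replicate 5, and that of Spi1 was -0.086 without Chat+ replicate 3. Bhlhe41, a repressor that mouse B-1a cells require, stood out. It was at 50.8, 37.6, 27.6, 33.3 and 75.9 CPM in Chat+ replicates 1 to 5 and at 18.0, 15.6, 11.1, 17.6 and 24.0 CPM in Chat- replicates 1 to 5. All Chat+ libraries were above all Chat- libraries, which also held for Bcl2l1 and for no other of the 69 pathway genes listed, against 1.12% of all genes. Bhlhe41 did not pass over all genes in the main fit (limma, log2 difference 1.33 ± 0.27, SE, adjusted p = 0.23). It passed when libraries were weighted by quality (limma, log2 difference 1.41, adjusted p = 0.0088). With a replicate block it passed as well (limma, log2 difference 1.33, adjusted p = 0.042). Its adjusted p depended on the fit, from 0.0088 to 0.59 over 17 alternatives.

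Other cytokine receptor chains mostly had slightly lower values in Chat+. Of 22, 20 were listed, 6 had a difference above 0 against 57% of all genes, and 0 passed, with a median log2 difference of -0.09. Ifnar2, a chain of the type I interferon receptor, was at 45.9 ± 5.64 against 54.2 ± 3.20 CPM (SD, n = 5; limma, log2 difference -0.25 ± 0.11, SE, adjusted p = 0.999). Il21r, the interleukin-21 receptor, had a log2 difference of -0.26, Il6st, the signalling chain of the interleukin-6 receptor, one of 0.36, and Il13ra1, a chain of the interleukin-13 receptor at 0.08 to 3.34 CPM, one of 0.92. These sizes moved when single libraries were left out. That of Il13ra1 was 1.51 without Chat- replicate 4, its highest library, and 0.48 without Chat- replicate 2, its lowest. With a pseudocount of 1 CPM the Il13ra1 difference was 0.36, and the filter of 1 CPM in 5 libraries removed this gene. That of Il21r was -0.15 without Chat+ replicate 5, -0.17 without Chat- replicate 1 and -0.41 without Chat- replicate 4. That of Il6st was 0.54 without Chat- replicate 4, 0.25 without Chat- replicate 2 and 0.27 without Chat+ replicate 5. Over all pathway lists together, 35 of 69 genes had a difference above 0.

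**Figure D3:**
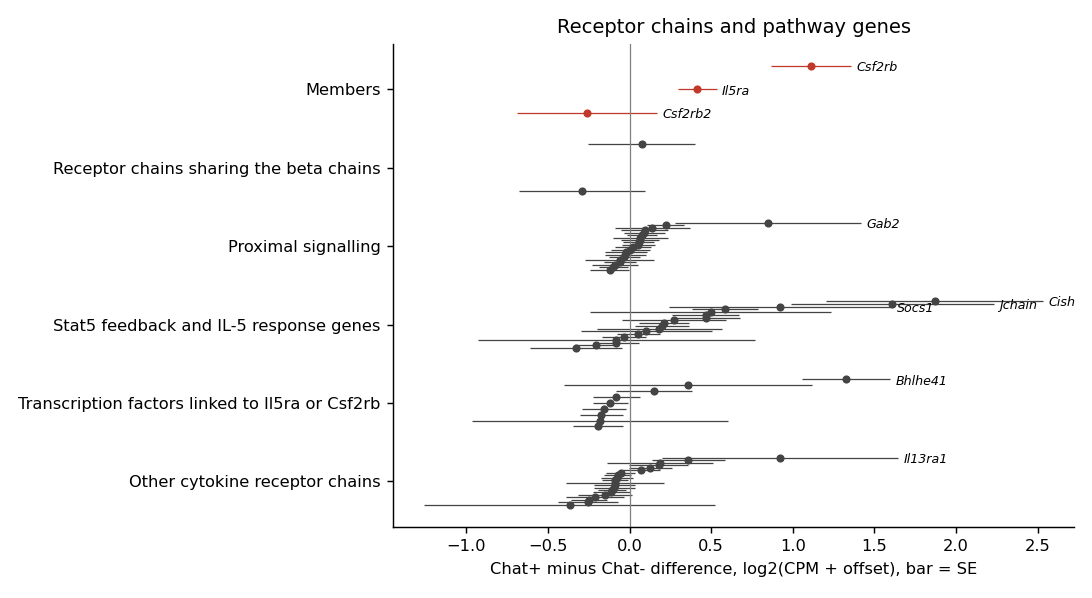
Chat+ minus Chat- difference on the log2(CPM + offset) scale (horizontal axis) with its SE for the 3 members in red and for 69 pathway genes by list in grey; pathway genes past 0.8 are named. The bars of Csf2rb (1.11) and Bhlhe41 (1.33) are shorter than those of Cish (1.87) and Jchain (1.61). In the main fit 0 of the 69 pathway genes passed over all genes. Bhlhe41 passed with library quality weights and with a replicate block.

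For each member the genes with the most similar pattern over the 10 libraries were ranked by the root mean square difference of log2 values, each gene centred on its own mean, among 11309 other named genes with a mean of at least 1 CPM. These values describe likeness and include the difference between groups. For Csf2rb the nearest gene was Bhlhe41, at 0.17, followed by Itm2c, Emb, Sox5 and Gbp2 at 0.27 to 0.29, where the median gene was at 0.75. In both Csf2rb and Bhlhe41, Chat+ replicate 5 was highest and Chat- replicate 3 lowest.

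For Il5ra the nearest gene was Smc2, a condensin subunit that packs chromosomes, at 0.07, where the median gene was at 0.37. Smc2 was at 50.0 ± 6.47 against 36.0 ± 1.09 CPM (SD, n = 5). Mtch2, Dtnb, Trmt11 and Rab11a followed at 0.11. Csf2rb itself was at 0.57 from Il5ra, a value that includes their unequal group differences and spreads. Both were higher in Chat+, but Chat+ replicate 3 was the highest of its group for Il5ra and the lowest for Csf2rb. For Csf2rb2 the nearest were Kctd7, Ston2, Eno1b, Snap47 and Sec61g at 0.27 to 0.36, and Csf2rb was at 0.82.

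**Figure D4:**
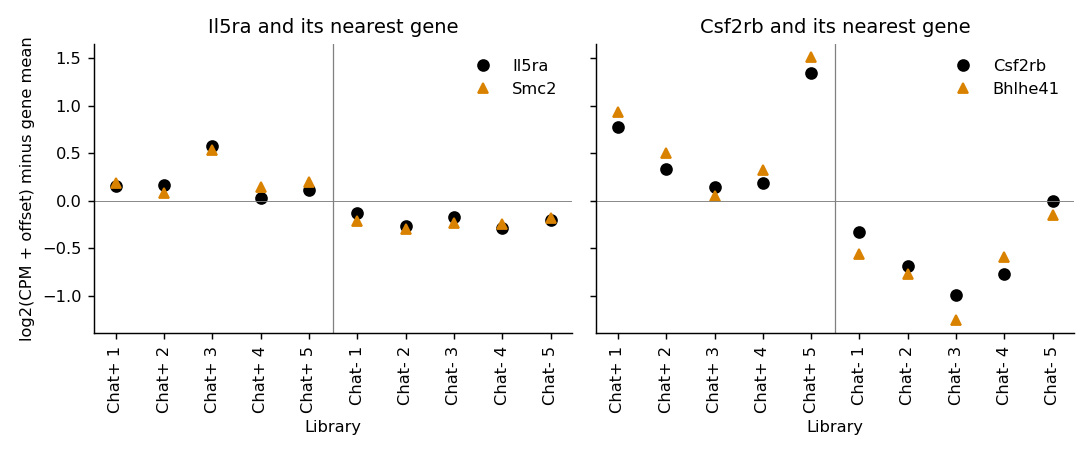
Log2(CPM + offset) minus the gene's mean over 10 libraries (vertical axis) for Il5ra with Smc2 and for Csf2rb with Bhlhe41, by library. Il5ra is highest in Chat+ replicate 3, Csf2rb and Bhlhe41 in Chat+ replicate 5.

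Since the receptor chains also mark other marrow cells, markers of those cells were summed per library. Of 9 eosinophil markers only Prg2 and Ccr3 were listed, the granule genes Epx, Prg3, Ear1, Ear2 and Ear6 with Siglecf and Alox15 being absent from the list. Their sum was 2.08 to 6.89 CPM in Chat+ and 0.883 to 5.72 CPM in Chat-. Of 8 basophil and mast cell markers 4 were listed, with sums of 0.546 to 10.1 CPM and 4.59 to 6.48 CPM, and the listed ones left out the receptor gene Fcer1a and the protease gene Cpa3. Neutrophil markers, 9 of 10 listed without Ly6g, summed to 21.8 to 132 CPM in Chat+ and 44.2 to 109 CPM in Chat-.

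Monocyte and macrophage markers, 10 of 10 listed, summed to 63.4 to 108 CPM in Chat+. In Chat- they summed to 43.8 to 60.9 CPM in the libraries other than replicate 4 and to 216 CPM in replicate 4. They thus moved with the groups apart from that library. Chat- replicate 4, with the highest macrophage sum, had 27.7 CPM of Csf2rb, the next to lowest value of all libraries. Chat+ replicate 3, with the highest sum in Chat+, had the lowest Csf2rb of its group and the highest Il5ra. Dendritic cell markers, 6 of 8 listed, summed to 5.26 to 9.70 CPM in Chat+ and 8.48 to 13.3 CPM in Chat-. Stem and progenitor markers, 4 of 6 listed, summed to 5.70 to 12.2 CPM and 5.61 to 16.8 CPM. Of 9 T and NK cell markers, Cd4 alone was listed, at 0.0344 to 1.27 CPM in Chat+ and 0 to 0.845 CPM in Chat-. What part such cells have in the levels of Il5ra and Csf2rb was not tested.

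**Figure D5:**
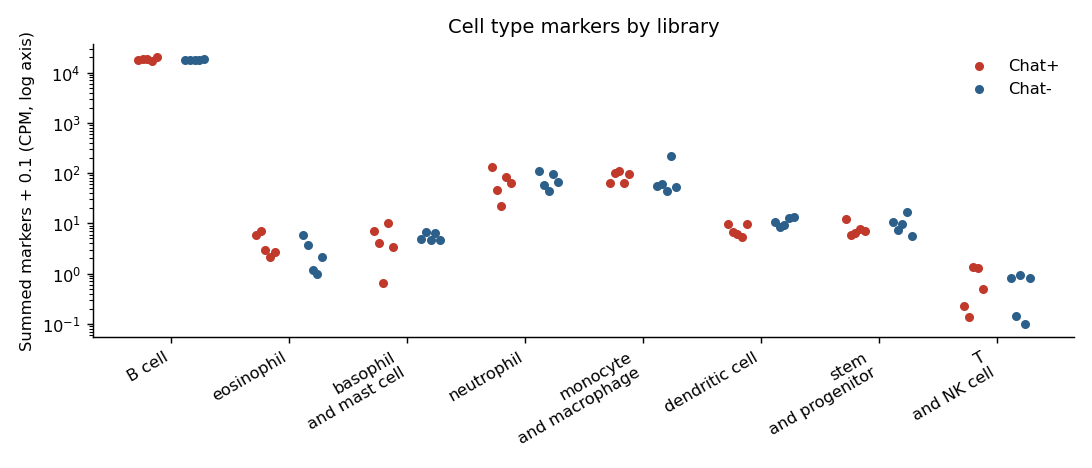
Summed CPM of the listed markers of 8 cell types plus 0.1 CPM (log axis), 1 point per library. B cell markers are at 17175 CPM or above in every library, and the highest monocyte and macrophage sum, 216 CPM, belongs to Chat- replicate 4.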

How the data were processed

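Transcripts were measured by RNA-seq in 5 Chat+ and 5 Chat- libraries, grouped and matched to columns by their titles, and 0 columns were left over. The submitters' processing notes name cutadapt 2.6, Salmon 0.14.2 and the build GRCm38.p6. What made the deposited table from their output is not given in the sources used here.

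The deposited values are log2(CPM + offset). All libraries share the lowest value, -3.12, and with that offset (0.115 CPM, about 3.00 reads) removed each sums to 1000000 CPM. Depth was estimated as the number of reads that makes the most low values whole. Within 0.001, 35.4% to 48.7% of the values below 3 CPM in a library came out whole, so reads were not recovered and count models were not used.

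The deposited log2 values were fitted with limma 3.58.1 in R 4.3.3 (mean-variance trend, group as the only term, two-sided, Benjamini-Hochberg over 14450 genes, threshold 0.05). Differences of low genes on this scale depend on the offset and need not match the ratio of their mean CPM. No p is given for the 3 members. The fit was tested on simulated data.

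Members and gene lists were chosen with earlier results of these data known. Named were the members, every listed sister receptor chain, 4 genes with the smallest p of each other list, and the 5 genes nearest each member. Others were named after their values were seen, namely Stat5a, Stat5b, Pim1 and Prdm1. Some listed genes are counted but not reported here by name.

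Symbols matched 14374 of 14450 identifiers. Coordinates, lengths and sequences are from GENCODE M21 (GRCm38), and coding sequences were aligned with Biopython 1.88 under Python 3.11.15. Alternatives changed the scaling, the pseudocount (1 CPM), a filter (1 CPM in 5 libraries), the trend, library weights, the replicate block, each library, and the split of the beta chain pair.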

Additional observations from a re-analysis of the deposited data

Results flagged for a closer look

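Il5ra in Chat+ replicate 3, at 65.2 CPM, stood away from the other Chat+ libraries. On the log2 scale its gap to the next library was 0.753 of the whole range of the group, above Dixon's critical value of 0.71 for 5 samples. This was the 1 such case in 44 groups of values looked at, and chance alone flags about 1 in 20.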

How the results depend on the processing

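The Il5ra difference was above 0 under all 17 alternatives (log2 0.32 to 0.46), and so was that of Csf2rb (0.91 to 1.25). That of Csf2rb2 lay between -0.59 and 0.0033 over 16 alternatives. Leaving out single libraries moved the mean Csf2rb2 share of the pair between 4.14% and 5.05% in Chat+ and between 9.70% and 11.8% in Chat-. The number of genes past the threshold over the whole table was 3 without the mean-variance trend (1 higher and 2 lower in Chat+) and 105 with library quality weights (93 higher, 12 lower). It was 1 to 6 when single libraries were left out, with 0 to 5 higher; it was 6 without Chat+ replicate 5 or Chat- replicate 4 and 2 without Chat- replicate 1 or 3. Of the 69 pathway genes, 1 passed with quality weights, Bhlhe41 (log2 difference 1.41, limma adjusted p = 0.0088; range over its 17 alternatives 0.0088 to 0.59), and 0 in any fit without 1 library. Signs were followed for the members, the sister receptor chains and the 4 genes with the smallest p of each other list. Among these, the Il3ra difference changed sign without Chat+ replicate 1 (-0.10) or Chat- replicate 4 (-0.08). That of Csf2ra did so without Chat+ replicate 5 (0.051), and that of Csf2rb2 without Chat+ replicate 3 (0.0033). Other listed genes, Stat5a and Stat5b among them, were not followed. Over all fits without 1 library the differences lay between -0.10 and 0.34 for Il3ra and between -0.48 and 0.051 for Csf2ra. The cause of these changes was not tested.

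Fitted with a replicate block, the whole table gave 6 genes (5 higher), among them Bhlhe41 (log2 difference 1.33, limma adjusted p = 0.042), and the SE of the Csf2rb difference was 0.10. Libraries of equal number correlated at -0.20 to 0.23 in their deviations from the group means. Of 5 Chat+ libraries, 3 correlated best with their own number. Whether equal numbers pair the samples is thus not settled, and the main fit treats the libraries as unpaired. From high to low, Csf2rb ranked its replicates 5, 1, 2, 4 and 3 and Chat 3, 1, 2, 4 and 5, in both groups alike. Cish, Bhlhe41 and Pim1 were highest in replicate 5 and then 1 in both, while Il5ra and Csf2rb2 had different orders. The Csf2rb ratio between libraries of equal number was 1.94 to 2.55. These orders were seen after the values, and the labels do not say what equal numbers share. Scaling by median log ratios shifted the median difference of all genes from 0.04 to -0.02 (log2) and left the Il5ra and Csf2rb differences at 0.36 and 1.06. Of the 3 members, counting error was largest for Csf2rb2 (6.89% to 15.7%).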
